A study of Mus musculus with 6 samples.

Results

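The Oas1 genes described here are Oas1b, Oas1c, Oas1d, Oas1e, Oas1f and Oas1h, 6 neighbouring paralogues on mouse chromosome 5, picked by gene symbol out of 23308 symbols in the gene tables. Each was found once in every table. RNA was sequenced from pools of 60 oocytes or embryos, taken from ICR-background females aged 21 to 23 days that had been injected with PMSG and hCG. The 6 libraries, each 1 pool, are 1 of YAP-null 4-cell embryos, 1 of wild-type 4-cell embryos, 2 of YAP-null oocytes at the germinal vesicle (GV) stage and 2 of wild-type GV oocytes. YAP-null stands for the labels YAP-/- and Yap1-deleted, which the labels give to the females and to their oocytes or embryos. How Yap1 was deleted, in which cells, and with which genotype of the sires is not stated there. The source field of the 4-cell samples calls them GV oocytes, and the titles and stage fields, which name 4-cell embryos, were followed. YAP is a transcriptional coactivator held in check by Hippo signalling, and the series is titled as a study of oocyte YAP in the activation of the embryonic genome.

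Oligoadenylate synthetases (OAS proteins) sense double-stranded RNA in the cytoplasm. The active enzymes make short oligoadenylates with 2-5 linkages, signal molecules of the antiviral response. Most family members are induced by interferon. The mouse has expanded the Oas1 gene into an array of paralogues. Oas1a and Oas1g encode active synthetases. Oas1d encodes a protein reported to lack synthetase activity and to be abundant in mouse oocytes, where its loss lowered fertility. Oas1b is the flavivirus resistance gene of mice, and it carries a premature stop codon in many laboratory strains. In the annotation used here, GENCODE M21 on GRCm38, Oas1b is a polymorphic pseudogene and the other 5 genes are protein coding.

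In the coordinates of the deposited tables (mm9), the cluster ran over 135 kb from chr5:121236321 to chr5:121371656. The order along the chromosome was Oas1e, Oas1c, Oas1b, Oas1f, Oas1h, then the non-members Oas1g and Oas1a, then Oas1d. Oas2 and Oas3 lie to the left and Rph3a, a gene of synaptic vesicle transport, lies to the right. None of these gene models overlapped its neighbour. Oas1c (chr5:121250208-121262523) and Oas1b (chr5:121262644-121274169) point away from each other, with 120 bases between their gene models.

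The RefSeq promoter windows of GRCm38.p6, 250 bases before to 50 after a start site, held an entry for 3 of the 6 members, Oas1c, Oas1f and Oas1h. They are shown with that of Oas1a because they separate the genes by the core of the interferon-stimulated response element, the motif through which interferon turns genes on. It was searched on both strands as GAAA, any 2 bases and GAAA again. In Oas1c (chr5:120812465-120812764, minus strand) and Oas1a (chr5:120907476-120907775, minus strand) the capitals mark its matches, which overlap each other. In Oas1f (chr5:120847117-120847416, plus strand) and Oas1h (chr5:120861172-120861471, plus strand) the capitals mark runs of at least 12 bases that the pair shares in an alignment.
Oas1c: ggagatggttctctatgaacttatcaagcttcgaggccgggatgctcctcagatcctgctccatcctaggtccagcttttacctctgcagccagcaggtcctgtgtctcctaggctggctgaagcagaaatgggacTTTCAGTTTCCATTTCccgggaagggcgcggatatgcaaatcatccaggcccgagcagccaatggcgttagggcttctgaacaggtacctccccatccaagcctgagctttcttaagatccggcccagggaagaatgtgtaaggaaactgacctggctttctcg
Oas1a: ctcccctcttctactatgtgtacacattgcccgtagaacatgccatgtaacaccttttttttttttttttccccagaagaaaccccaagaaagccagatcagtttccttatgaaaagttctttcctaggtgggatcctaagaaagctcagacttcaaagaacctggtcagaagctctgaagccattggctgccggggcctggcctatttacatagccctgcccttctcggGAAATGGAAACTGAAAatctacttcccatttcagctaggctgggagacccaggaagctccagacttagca
Oas1f: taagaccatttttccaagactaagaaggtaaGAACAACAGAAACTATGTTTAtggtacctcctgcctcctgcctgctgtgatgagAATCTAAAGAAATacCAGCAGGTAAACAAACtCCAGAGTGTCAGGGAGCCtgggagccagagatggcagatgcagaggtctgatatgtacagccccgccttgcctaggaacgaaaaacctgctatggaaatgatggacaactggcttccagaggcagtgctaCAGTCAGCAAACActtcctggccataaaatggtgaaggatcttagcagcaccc
Oas1h: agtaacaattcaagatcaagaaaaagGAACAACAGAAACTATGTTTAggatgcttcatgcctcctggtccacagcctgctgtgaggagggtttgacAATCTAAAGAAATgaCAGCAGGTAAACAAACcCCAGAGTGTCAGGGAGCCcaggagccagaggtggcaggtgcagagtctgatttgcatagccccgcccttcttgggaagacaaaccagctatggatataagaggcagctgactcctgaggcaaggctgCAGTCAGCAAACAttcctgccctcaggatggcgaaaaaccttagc

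The interferon core matched 2 times in the windows of Oas1a, Oas1g and Oas1c and 1 time in that of Oas3. It matched 0 times in those of Oas1f and Oas1h and of the non-members Oasl1 and Oasl2. It was found in 3.44% of the 32851 windows in the RefSeq table. In Oas1a the matches ended 5 bases before the start site. In the Oas1c window they lay on the opposite strand, within the 120 bases that separate the start sites of Oas1c and Oas1b. Read towards Oas1b, they covered the stretch from 22 to 7 bases before the GENCODE start of Oas1b. The windows of Oas1f and Oas1h were identical at 82.0% of 284 aligned bases, with 5 shared runs, the longest of 21 bases. Both held 2 matches to the E-box CANNTG, which overlapped no interferon core and was found in 72.3% of all windows. The TEAD element GGAATG, bound by the DNA-binding partners of YAP, matched 1 time in Oas1h, after its start site, and 0 times in Oas1c and Oas1f, against 14.7% of all windows. The NOBOX element, searched as TAATTG or TAATTA on both strands, matched 0 times in the 3 members and was found in 12.4% of all windows. Matches describe letters in these windows and say nothing of binding.

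Sequence identity bears on how reads of such paralogues can be assigned. Over the 15 pairs of members the coding sequences of GENCODE transcripts were identical at 75.7% to 90.9% of aligned bases, highest for Oas1d and Oas1e. The share of 50-base windows of a transcript that also occurs in another Oas1 gene was 11.5% for Oas1e, 10.7% for Oas1c, 6.24% for Oas1d, 2.94% for Oas1f, 1.35% for Oas1b and 0.423% for Oas1h. With windows of 100 bases it was 0% for all 6. The non-members Oas1a and Oas1g shared 57.6% and 54.7% of their 50-base windows, so a value of either cannot be separated well from the other. The sources used here give no read length and do not say how shared reads were counted.

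The values are FPKM, fragments counted per transcript length and per library size, so that levels can be set side by side between genes. The tables hold no read totals, and depth is therefore unknown. FPKM summed to between 362849 and 462324 per library, and 9984 to 10823 genes reached 1 FPKM. In YAP-null GV library 1 the small RNA gene Mir762 took 19.1% of the sum. In such pools fewer cells of a type and less RNA per cell cannot be told apart. Yap1 read 33.3 FPKM in YAP-null against 89.7 FPKM in wild-type 4-cell embryos. Its GV level was 10.8 and 10.04 FPKM in YAP-null against 248 and 153.5 FPKM in wild-type oocytes. Of 12 oocyte markers, none was at 0 in any library.

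Oas1e, Oas1d, Oas1h and Oas1c were among the abundant transcripts of the GV oocyte in both genotypes. Together they made up 98.6% to 98.8% of the cluster sum in GV oocytes and 96.3% to 96.7% at the 4-cell stage. The cluster sum was 189 FPKM in YAP-null against 21.6 FPKM in wild-type 4-cell embryos. Its GV values were 1840 and 2132 FPKM in YAP-null against 1977 and 2365 FPKM in wild-type oocytes. The 4 GV libraries all lay far above both 4-cell libraries.

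Oas1e, at the left end of the cluster, was the highest member in each GV library. It was at 46.2 FPKM in YAP-null against 1.78 FPKM in wild-type 4-cell embryos. GV levels were 621 and 736 FPKM in YAP-null against 655 and 793 FPKM in wild-type oocytes, which ranked it between place 31 and place 42 of all genes. The GV genotypes overlapped, and its spread between the libraries of a genotype was the smallest of the 6 members (SD of 0.18 on the log2 scale).

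Oas1d, the gene of the oocyte-abundant protein without synthetase activity, was at 81.1 FPKM in YAP-null against 14.9 FPKM in wild-type 4-cell embryos. GV levels were 391 and 635 FPKM in YAP-null against 466 and 731 FPKM in wild-type oocytes. It was the highest member in both 4-cell libraries, where it made up 42.9% of the cluster sum in YAP-null and 69.0% in wild-type embryos, against 21.3% to 30.9% in GV oocytes.

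Oas1h, the member beside Oas1g and Oas1a, was at 27.8 FPKM in YAP-null against 1.58 FPKM in wild-type 4-cell embryos. GV levels were 501 and 281 FPKM in YAP-null against 506 and 337 FPKM in wild-type oocytes. Oas1c, which shares its upstream region with Oas1b, was at 26.9 FPKM in YAP-null against 2.64 FPKM in wild-type 4-cell embryos. Its GV levels were 304 and 449 FPKM in YAP-null against 325 and 471 FPKM in wild-type oocytes. For both genes the GV genotypes overlapped and all GV libraries lay above both 4-cell libraries.

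Oas1f and Oas1b, which lie side by side, were the low members. Oas1f was at 2.57 FPKM in YAP-null against 0.323 FPKM in wild-type 4-cell embryos. GV levels were 9.44 and 24.0 FPKM in YAP-null against 13.6 and 27.7 FPKM in wild-type oocytes. The upstream windows of Oas1f and Oas1h, 82.0% identical, thus belong to a low and a high member. Oas1b, the flavivirus resistance gene, was at 4.51 FPKM in YAP-null against 0.381 FPKM in wild-type 4-cell embryos. GV levels were 12.9 and 6.91 FPKM in YAP-null against 10.9 and 4.60 FPKM in wild-type oocytes. The YAP-null 4-cell level of Oas1b lay just under its lowest GV level. Across the 120 bases that part them, Oas1c stood 23.5 to 102-fold above Oas1b in GV oocytes and 5.96-fold (YAP-null) and 6.94-fold (wild type) above it at the 4-cell stage. The wild-type 4-cell ratio rests on 0.381 FPKM of Oas1b and is uncertain.

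**Figure D1:**
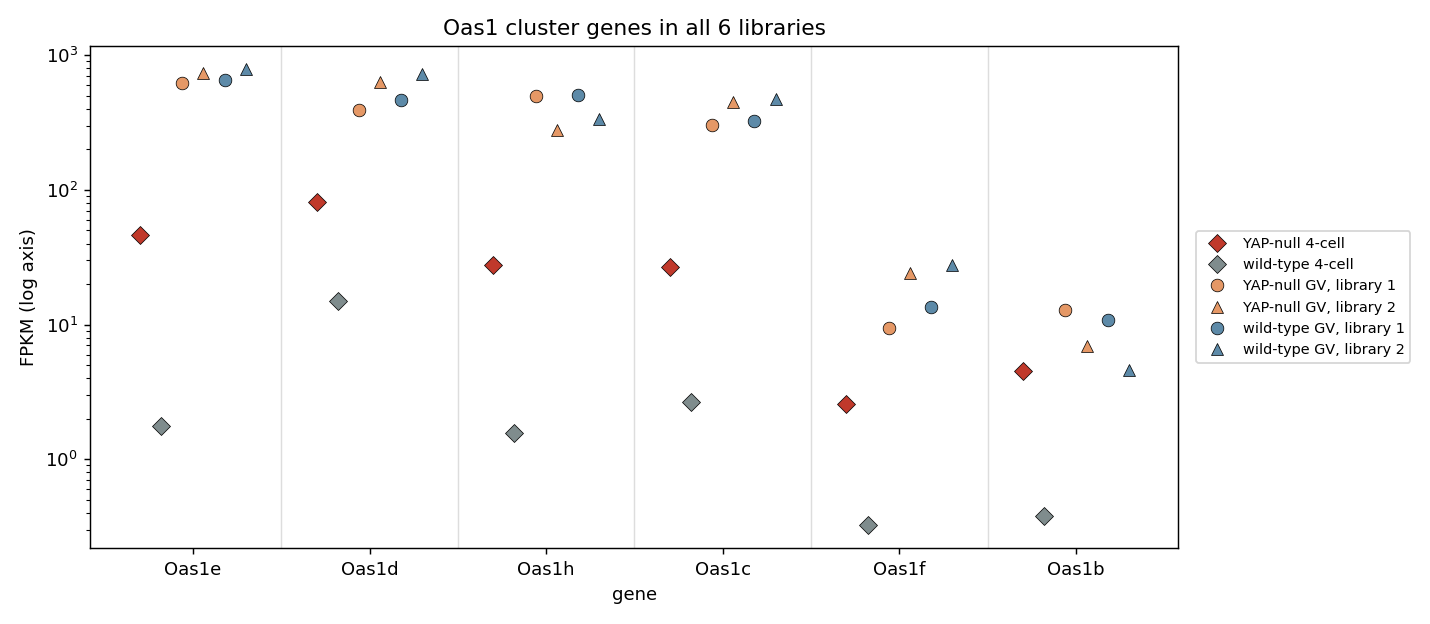
FPKM (log axis) of the 6 Oas1 genes, with 1 point per library: diamonds are 4-cell embryos, circles and triangles are GV libraries 1 and 2. The wild-type 4-cell point is the lowest for each gene, the YAP-null 4-cell point stands between it and the GV points, and the GV points of both genotypes lie together.

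The order of the GV levels was constant at the top and varied in the middle. Averaged over the 4 GV libraries, the levels were 701 ± 77.9 FPKM for Oas1e, 556 ± 155 for Oas1d, 406 ± 115 for Oas1h, 387 ± 85.0 for Oas1c, 18.7 ± 8.58 for Oas1f and 8.84 ± 3.77 for Oas1b (SD, n = 4 libraries). Oas1e was above Oas1d and Oas1c was above Oas1f in 4 of 4 GV libraries. Oas1d was above Oas1h, and Oas1h above Oas1c, in 2 of 4, so neither order held over these libraries. In both genotypes Oas1h was above Oas1d and Oas1c in GV library 1 and below both in GV library 2. Oas1f was above Oas1b in 3 of 4.

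The cluster did not have an even level from end to end. Oas1g, which lies between Oas1h and Oas1d, was at 0 FPKM in YAP-null against 0.145 FPKM in wild-type 4-cell embryos. Its GV levels were 2.15 and 0.983 FPKM in YAP-null against 1.24 and 0.900 FPKM in wild-type oocytes. Oas1a, the other active synthetase gene in that gap, was listed at 0 in 3 of the 6 libraries and at most at 0.338 FPKM. On the left side Dtx1 was at most at 0.217 FPKM, Oas2 at most at 0.148 FPKM and Oas3 at most at 1.63 FPKM. On the right side lie Rph3a, then Ptpn11, the gene of a signalling phosphatase, then Rpl6, a ribosomal protein gene. Rph3a was at 17.1 FPKM in YAP-null against 3.45 FPKM in wild-type 4-cell embryos, with 5.53 and 40.9 FPKM in YAP-null against 6.10 and 45.4 FPKM in wild-type oocytes. Ptpn11 (22.8 to 102 FPKM over the libraries) and Rpl6 (58.8 to 686 FPKM) were well expressed, and Rpl6 was lower in each GV library than in both 4-cell libraries.

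**Figure D2:**
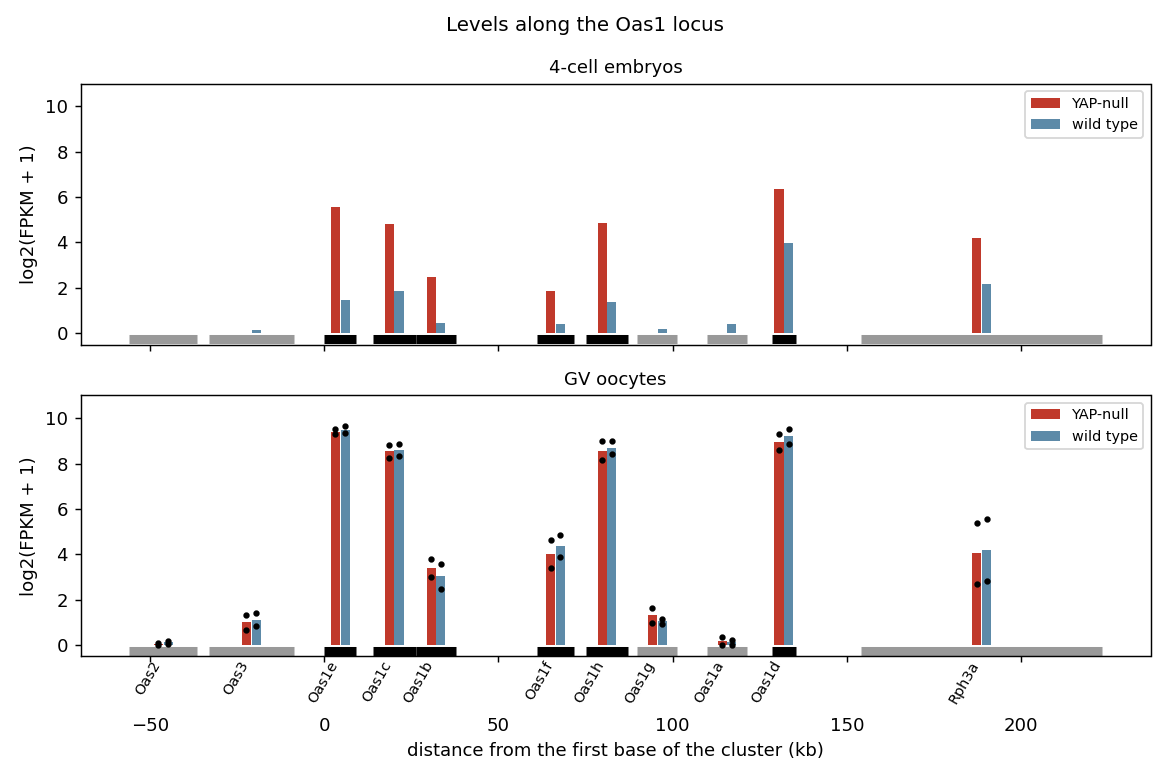
Mean log2(FPKM + 1) of each gene along the locus, at its distance in kb from the first base of Oas1e, in 4-cell embryos (top) and GV oocytes (bottom). Black bars under the axis are the 6 members, grey bars other genes, and dots are single GV libraries. The members on either side of Oas1g and Oas1a stand above both of these at both stages.

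The first comparison set YAP-null against wild-type GV oocytes, before embryonic transcription begins. All 6 members lay at similar levels in both genotypes. YAP-null over wild-type folds of the mean FPKM were 0.937 for Oas1e, 0.857 for Oas1d, 0.928 for Oas1h, 0.946 for Oas1c, 0.808 for Oas1f and 1.28 for Oas1b. For each of the 6 members the 2 YAP-null libraries overlapped the 2 wild-type libraries, while 10.8% of the 10462 genes tested did not overlap in either direction. For the cluster sum the mean was 1986 ± 206 FPKM in YAP-null against 2171 ± 274 FPKM in wild-type oocytes (SD, n = 2 each).

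In the limma test of log2(FPKM + 1) over the 10462 genes that averaged 1 FPKM or more, 0 of the 6 members passed a Benjamini-Hochberg adjusted p of 0.05. The share of all genes that passed was 0%, and 0.21% had an unadjusted p under 0.05, none of them a member. Yap1, at 5.19% of its mean wild-type level in YAP-null GV oocytes, was tested and did not pass either. A count of 0 in this fit, here and for the gene lists below, therefore does not show that a gene was unchanged. The difference, YAP-null minus wild type, was -0.09 for Oas1e (95% interval -1.08 to 0.90), -0.08 for Oas1c (-1.19 to 1.02), -0.14 for Oas1h (-1.38 to 1.10) and -0.23 for Oas1d (-1.45 to 0.99) on the log2 scale. For Oas1f it was -0.34 (-1.94 to 1.25) and for Oas1b 0.36 (-1.10 to 1.82). In this fit, which has no term for the replicate number, each interval includes a 2-fold lower level in YAP-null oocytes, so equality was not shown. The members' median was -0.11, against 0.00 for all genes tested.

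Within the libraries that carry the same replicate number the genotype difference had a constant sign for each member. YAP-null was below wild type in both numbers for Oas1e, Oas1d, Oas1h, Oas1c and Oas1f, with folds from 0.693 (Oas1f, number 1) to 0.991 (Oas1h, number 1). Oas1b was above wild type in both, by 1.18-fold and 1.502-fold. Of all genes tested, 24.6% were lower in YAP-null libraries in both numbers. The share higher in both, the direction of Oas1b, was not counted.

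The numbers themselves separated the members into 2 kinds. Against library 1 of the same genotype, library 2 held 1.48-fold (YAP-null) and 1.45-fold (wild type) as much Oas1c, 1.62-fold and 1.57-fold as much Oas1d, 1.18-fold and 1.21-fold as much Oas1e, and 2.54-fold and 2.04-fold as much Oas1f. Oas1h went the other way, at 0.560-fold (YAP-null) and 0.665-fold (wild type), and so did Oas1b, at 0.534-fold and 0.422-fold. As a result Oas1h stood 1.28-fold (YAP-null) and 1.09-fold (wild type) as high as Oas1d in the libraries numbered 1, and 0.442-fold and 0.460-fold as high in those numbered 2. The cluster sum differed by 1.16-fold and 1.20-fold. Among all genes, 45.6% were higher and 37.8% lower in library 2 in both genotypes, so a like direction in both genotypes was common, and the labels do not say what the number marks. The sum of 12 oocyte markers moved with it. This sum was 5700 and 11209 FPKM in YAP-null oocytes numbered 1 and 2, against 6777 and 11724 FPKM in wild-type oocytes so numbered. Each marker but Nobox was higher in library 2 in both genotypes, by unlike amounts. Nlrp5 rose from 17.9 to 728 FPKM (YAP-null) and from 13.6 to 781 FPKM (wild type). Nobox went from 245 to 243 FPKM (YAP-null) and from 239 to 230 FPKM (wild type). The part of these marker shifts in the members' differences was not tested.

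**Figure D3:**
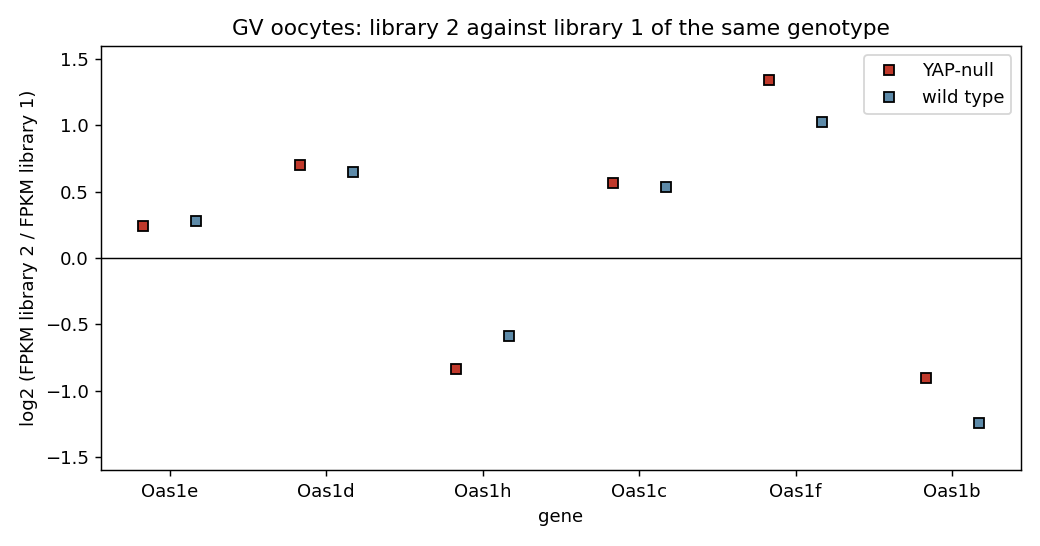
Log2 ratio of FPKM in GV library 2 to GV library 1 of the same genotype, for each Oas1 gene, with YAP-null left of wild type. Oas1e, Oas1d, Oas1c and Oas1f lie above 0 and Oas1h and Oas1b below 0 in both genotypes.

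The second comparison followed the cluster from the oocyte to the 4-cell embryo. All 6 members were lower in both 4-cell libraries than in each of the 4 GV libraries, as were 40.4% of the 10462 genes tested in GV oocytes. In the limma test over all 6 libraries, with genotype and stage as terms and 11451 genes, 6 of 6 members fell at an adjusted p under 0.05. Of all genes, 27.8% fell and 28.2% rose. The stage difference, 4-cell minus GV, was -5.93 ± 0.899 for Oas1e (SE, adjusted p = 0.00226), -5.52 ± 0.823 for Oas1h (0.00213), -5.24 ± 0.703 for Oas1c (0.00145) and -3.90 ± 0.660 for Oas1d (0.00342). It was -3.06 ± 0.602 for Oas1f (0.00605) and -1.75 ± 0.548 for Oas1b (0.0342). These SE also hold any genotype difference that was not the same at both stages. With a mean for each of the 4 groups the SE ran from 0.232 (Oas1e) to 0.572 (Oas1f). The members' median was -4.57, against -0.10 for all genes tested. In the same test 10 of the 12 oocyte markers fell and 0 rose, and 8 of 9 tested markers of the embryo after genome activation rose and 0 fell.

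The calls of Oas1e, Oas1h and Oas1c stood under every alternative run, at adjusted p values up to 0.0284. Without the wild-type 4-cell library 3 of 6 members were called, since Oas1d (0.0514), Oas1f (0.133) and Oas1b (0.395) did not pass. The differences of the members still called were then -3.84 for Oas1e, -3.73 for Oas1c and -3.71 for Oas1h, and without the YAP-null 4-cell library they were -8.02, -6.75 and -7.33. Oas1b also lost its call without the YAP-null 4-cell library (0.0664), without YAP-null GV library 1 (0.0506) or wild-type GV library 1 (0.0539), with a mean for each of the 4 groups (0.0614) and with no filter on low values (0.0625).

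The share of the oocyte level that was left differed between members and between genotypes. As a share of the mean GV level of the same genotype, the YAP-null 4-cell library held 6.81% of Oas1e, 7.11% of Oas1h, 7.14% of Oas1c, 15.8% of Oas1d, 15.4% of Oas1f and 45.5% of Oas1b. The wild-type 4-cell library held 0.246% of Oas1e, 0.375% of Oas1h, 0.664% of Oas1c, 2.49% of Oas1d, 1.56% of Oas1f and 4.91% of Oas1b. In both genotypes the order was Oas1e, Oas1h, Oas1c, Oas1f, Oas1d and Oas1b. Against the single GV libraries the YAP-null shares ran from 6.28% to 7.43% for Oas1e and from 5.54% to 9.91% for Oas1h. For Oas1c they ran from 5.98% to 8.84%, so these 3 genes were not distinct. Oas1f (10.7% to 27.3%) and Oas1d (12.8% to 20.7%) overlapped too, as they did in wild type (1.16% to 2.37% and 2.04% to 3.20%). The wild-type shares of Oas1f and Oas1b rest on 0.323 and 0.381 FPKM. For the cluster sum the share was 9.52% in YAP-null embryos (8.87% to 10.3% against the single GV libraries) and 0.997% in wild-type embryos (0.915% to 1.10%), a fall of 10.5-fold and 100-fold. The median over all 6 members was 11.3% in YAP-null and 1.11% in wild-type embryos. Over Oas1e, Oas1d, Oas1h and Oas1c, which had at least 100 FPKM in GV oocytes, it was 7.12% in YAP-null and 0.519% in wild-type embryos. Over the 366 genes at that level that fell and averaged at least 1 FPKM at the 4-cell stage, these 4 included, it was 20.1% in YAP-null and 7.87% in wild-type embryos.

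**Figure D4:**
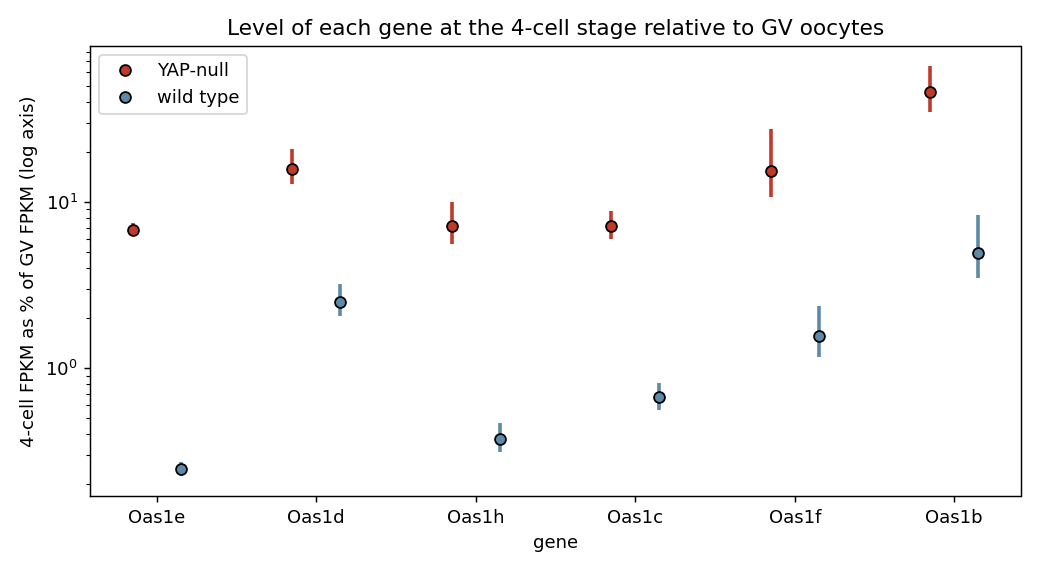
Level at the 4-cell stage as a percentage of the mean GV level of the same genotype (log axis), with YAP-null left of wild type. Vertical lines run between the shares computed against each of the 2 GV libraries. The YAP-null point lies above the wild-type point for all 6 genes, from 45.5% and 4.91% for Oas1b to 6.81% and 0.246% for Oas1e.

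The third comparison set the YAP-null against the wild-type 4-cell library. With 1 library of each there was no spread between embryo pools and no test was made. All 6 members were at least 2-fold higher in the YAP-null library on the log2(FPKM + 1) scale, as were 17.7% of the 10854 genes that averaged 1 FPKM or more, and 9.97% were lower. Oas1b and Oas1f reached that mean through the YAP-null library alone, and the other 4 members were all at least 4-fold higher, against 4.56% of all genes. The fold of FPKM was 26.0 for Oas1e, 17.6 for Oas1h, 11.9 for Oas1b, 10.2 for Oas1c, 7.97 for Oas1f and 5.43 for Oas1d, and 8.74 for the cluster sum. On the log2(FPKM + 1) scale the difference was 4.09 for Oas1e, 3.48 for Oas1h, 2.94 for Oas1c, 2.36 for Oas1d, 2.00 for Oas1b and 1.43 for Oas1f, since adding 1 compresses the low members. The deposited lower bound of the YAP-null value lay above the upper bound of the wild-type value for all 6 members, as for 34.6% of the 10783 single-locus genes among those counted. These bounds concern 1 library at an unstated level. Of the 36 member values, 11 lay outside their own bounds, all of them GV values of Oas1c, Oas1d and Oas1e.

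The balance of the whole comparison depended on scaling. Of the genes at least 2-fold apart, 3007 as deposited, most were higher in the YAP-null library each time. The share was 64.0% without rescaling, 52.8% with quantile normalization and 75.4% with sums made equal. The sign of the median difference of all genes varied, at 0.05, -0.08 and 0.23 under these scalings. All 6 members remained at least 2-fold higher under each of them. Other transcripts that fell after the oocyte stage were in part higher in the YAP-null 4-cell library. Of the 2192 genes that fell in the stage test and averaged at least 1 FPKM at the 4-cell stage, 38.9% were at least 2-fold higher, and of the 366 with at least 100 FPKM in GV oocytes 57.4% were. The median difference was 3.21 on the log2 scale over Oas1e, Oas1d, Oas1h and Oas1c, the 4 members at that level, and 1.20 over the 366 genes, of which they are part. It was 2.65 over all 6 members and 0.05 over all genes counted. Of the 12 oocyte markers, 11 were at least 2-fold higher in the YAP-null library and 0 lower, with a median difference of 3.10. All 12 summed to 2371 FPKM in YAP-null against 1743 FPKM in wild-type embryos. Dppa3, the marker that was not 2-fold apart, alone gave 1440 and 1625 FPKM of these sums. Of 10 markers of the embryo after genome activation, 0 were at least 2-fold higher and 4 lower, with sums of 501 FPKM in YAP-null against 556 FPKM in wild-type embryos. The 12 granulosa and cumulus markers summed to 64.6 FPKM, with 7 at 0, in YAP-null against 76.4 FPKM, with 3 at 0, in wild-type embryos, and Amhr2 alone gave 62.0 and 74.7 FPKM of these. The 9 blood and immune markers summed to 42.4 FPKM, with 6 at 0, in YAP-null against 69.1 FPKM, with 0 at 0, in wild-type embryos. The part of these marker differences in the result was not tested.

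The stage fall of the cluster was thus smaller in the YAP-null than in the wild-type libraries, by 3.20 on the log2 scale for the sum and by 1.64 (Oas1b) to 4.18 (Oas1e) for single members. It rests on 1 library per genotype at the 4-cell stage and was not tested.

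The OAS genes that are not members stayed under 5 FPKM in every library, while Abce1 and Pde12 reached higher levels in some libraries. Of the 9 genes in the list of the pathway that are not members, 5 reached a mean of 1 FPKM in GV oocytes and 0 passed the test between genotypes. In the stage test 1 rose and 1 fell of 3 tested. Abce1, the gene of a ribosome recycling factor, rose to 55.3 and 82.4 FPKM in YAP-null and wild-type 4-cell embryos, against 3.54 to 5.83 FPKM in GV oocytes (a difference of 3.66 ± 0.357 SE on the log2 scale, adjusted p = 0.000531). Oasl1, an OAS-like gene, fell and was listed at 0 in both 4-cell libraries, against 2.24 to 4.72 FPKM in GV oocytes (adjusted p = 0.00141). Pde12, of the phosphodiesterase that degrades oligoadenylates, did not pass (adjusted p = 0.372), at 16.3 and 11.2 FPKM in YAP-null and wild-type 4-cell embryos and between 4.35 and 14.9 FPKM in GV oocytes. Oasl2 reached 1.26 FPKM in YAP-null against 2.95 FPKM in wild-type 4-cell embryos and was at most at 0.331 FPKM in GV oocytes.

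Genes that interferon induces in other cells were mostly low where the Oas1 members were abundant. Of 20 such genes, 10 stayed under 1 FPKM in all 6 libraries, and 3 of them, Ifit2, Mx2 and Usp18, were at 0 in each (named after their values were seen). In GV oocytes 3 of the 20 reached a mean of 1 FPKM, as did 10462 of all 23308 genes. Of these 3, 0 passed the test between genotypes. In the stage test 4 of 6 tested genes rose and 0 fell, among them Ifi35, at 32.5 and 39.9 FPKM in YAP-null and wild-type 4-cell embryos and at most at 0.230 FPKM in GV oocytes (5.14 ± 0.272, adjusted p = 0.000124), and Stat2, at 9.09 and 16.7 FPKM against 3.33 to 5.90 FPKM (1.24 ± 0.340, adjusted p = 0.0215). Bst2, of the virus-tethering protein tetherin, was at 49.8 FPKM in YAP-null against 33.4 FPKM in wild-type 4-cell embryos and between 4.88 and 36.5 FPKM in GV oocytes, and it did not pass the stage test (adjusted p = 0.148). Of the 7 counted at the 4-cell stage, 1 was at least 2-fold higher in the YAP-null library, Ifitm3 (17.1 FPKM in YAP-null against 3.38 FPKM in wild-type embryos), and 2 were lower. Ifitm3 was not low in each GV library, at 2.02 and 28.5 FPKM in YAP-null against 1.92 and 30.6 FPKM in wild-type oocytes.

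Sensors of double-stranded RNA and the interferon receptors covered a wide range of levels. Of 12 sensor genes 7 were tested in GV oocytes and 0 passed. In the stage test 1 of 6 fell and 0 rose, and the one that fell was Ddx58, the gene of the RIG-I sensor, named after its value was seen. At the 4-cell stage 0 of 7 were at least 2-fold higher in the YAP-null library and 1 lower. Dicer1, the nuclease of the small RNA pathway, was at 32.2 FPKM in YAP-null against 19.3 FPKM in wild-type 4-cell embryos and between 35.0 and 80.2 FPKM in GV oocytes. Of 10 receptor and signalling genes, 0 of 7 tested passed between GV genotypes, and in the stage test 3 of 9 rose and 3 fell. Il10rb, of a shared cytokine receptor chain, fell to 1.16 and 0 FPKM in YAP-null and wild-type 4-cell embryos, against 17.9 to 30.7 FPKM in GV oocytes (-3.99 ± 0.376, adjusted p = 0.000483). Jak1, the receptor-bound kinase gene, fell to 8.89 and 7.46 FPKM, against 23.8 to 41.2 FPKM (-1.81 ± 0.367, adjusted p = 0.00681). Tyk2, the gene of a kinase of the same family, rose to 22.3 and 18.2 FPKM in YAP-null and wild-type 4-cell embryos, against 3.74 to 8.62 FPKM in GV oocytes (1.58 ± 0.419, adjusted p = 0.0188). Irf3, of a transcription factor that turns on interferon genes, did not pass (0.03 ± 0.452, adjusted p = 0.955), at 10.98 and 11.23 FPKM in YAP-null and wild-type 4-cell embryos and 7.21 to 17.5 FPKM in GV oocytes.

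The genes whose levels followed the cluster sum most closely over the 6 libraries were Gdf9, Kcnq1, 0610040F04Rik, Dsn1 and Rab38, with Pearson's r of 0.9989 to 0.9994 on the log2 scale among 6212 genes averaging 10 FPKM or more. Gdf9 and the Oas1 sum were both at their highest in wild-type GV library 2 and at their lowest in the wild-type 4-cell library. The 6 points fall into 2 stages, and 812 of the 6212 genes (13.1%) had r above 0.95. Gdf9, the gene of a growth factor that the oocyte secretes, was at 220 FPKM in YAP-null against 19.9 FPKM in wild-type 4-cell embryos, with GV levels of 1996 and 2695 FPKM in YAP-null against 2576 and 2875 FPKM in wild-type oocytes. Dsn1, a kinetochore gene, shared the order of the libraries but not the size of the change, at 70.9 FPKM in YAP-null against 53.1 FPKM in wild-type 4-cell embryos and 92.1 to 93.8 FPKM in GV oocytes.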

How the data were processed

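Each library came with a table of FPKM values per gene and a lower and an upper bound, as deposited by the authors and named in the file headers. The submitters' processing notes name CASAVA 1.8, TopHat and the build mm9. No source used here names the quantification tool, the annotation or the read length. FPKM tables hold no counts, so depth and its error are unknown. Symbols at several loci (260) were added up, 1 failed line was dropped, and each of the 6 Oas1 genes had a single line.

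The values were put on the scale log2(FPKM + 1), filtered at a mean of 1 FPKM and fitted with limma 3.58.1 (trend option) in R 4.3.3. Calls are two-sided, with p adjusted by Benjamini-Hochberg over all genes and a threshold of 0.05. GV genotypes were fitted on 4 libraries and stages on 6, with genotype as a term. The 4-cell genotypes were counted by a 2-fold rule. No permutation test was used, since 2 libraries against 2 cannot give less than 0.333. The fits were run on simulated libraries with planted changes. The simulated noise was independent between libraries, so this check does not cover an effect of the replicate number. The labels name no separate animals, so p-values measure the spread between these libraries, which may be technical. In the stage fit that spread also takes in any genotype difference that was not the same at both stages.

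The members, lists and tests were chosen with earlier results of these data known. Named genes were the members, Yap1, the genes beside the cluster, the OAS family, up to 4 abundant genes per list and the 5 genes most like the cluster sum; 1 other gene is not reported here. Alternatives changed the pseudocount (0.1 or 5), the filter (none or 5 FPKM), the scaling, the fold or the model, added a replicate block, or left out a library or Oas1e. Promoter windows are from RefSeq (GRCm38.p6), strands and transcripts from GENCODE M21 (GRCm38), and identities from alignments made with Biopython 1.88.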

Additional observations from a re-analysis of the deposited data

Results flagged for a closer look

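For 5 members and the cluster sum the genotype difference had one sign in both pairs of GV libraries and the other sign at the 4-cell stage: YAP-null was lower in GV oocytes and higher in 4-cell embryos. The 4-cell difference minus the mean GV difference, on the log2(FPKM + 1) scale, was 4.18 for Oas1e, 3.62 for Oas1h, 3.02 for Oas1c, 2.59 for Oas1d, 1.78 for Oas1f and 3.20 for the cluster sum. These differences were not tested, since the 4-cell stage has 1 library per genotype. The GV part was small in each case and no member passed the test there. Of all 10462 genes with a GV mean of at least 1 FPKM, 12.9% had the same pattern of signs, lower in YAP-null GV libraries of both numbers and higher in the YAP-null 4-cell library.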

How the results depend on the processing

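No member passed between GV genotypes under any alternative. Over all member results 163 alternatives changed neither direction nor call, 8 lost a stage call (given beside that test), 9 moved the size of a 4-cell difference and 12 turned the sign of a GV difference. Those 12 each left out 1 GV library: the differences then ran from -0.18 to 0.91 for Oas1b, -0.36 to 0.20 for Oas1c, -0.58 to 0.12 for Oas1d, -0.23 to 0.046 for Oas1e, -0.97 to 0.28 for Oas1f and -0.56 to 0.28 for Oas1h. Stage calls with a library left out numbered 3 to 6 for members and 2965 to 6332 for all genes (6408 with every library), with 2965 without the wild-type and 4215 without the YAP-null 4-cell library. Between GV genotypes leaving out a library gave 2 to 7 calls over all genes, on the assumption that a group of 1 varies as the other group does. The replicate block gave 2 calls and no member; it left the members' differences as they were and lowered their SE to between 0.109 (Oas1e) and 0.189 (Oas1b), against 0.381 and 0.559 without it, so the width of the GV intervals depends on the block. The labels do not tie a number to an animal or day; the deviations of same-numbered libraries correlated at r = 0.849 across 10462 genes.

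At the 4-cell stage all 6 members stayed higher in YAP-null under each scaling and pseudocount. Adding 5 FPKM before the log left 4 of 6 at least 2-fold apart, with Oas1b at 0.82 and Oas1f at 0.51. The number of all genes so far apart was 3007, against 1275 when 5 FPKM was added, 1723 among genes averaging 5 FPKM and 696 by a 4-fold rule. The log2 ratio of the cluster sum was 3.13 at the 4-cell stage, with 2.92 under median-ratio scaling, 3.32 under equal sums and 2.85 without Oas1e. Between 4-cell and GV it was -6.65 in wild type, with -6.48, -6.91 and -6.19 in that order, and -3.39 in YAP-null, with -3.59 under quantile normalization and -3.19 without Oas1e. Unknown depth limits the low members most.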
